A study of Mus musculus with 30 samples.

Results

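The integrated stress response and the unfolded protein response were followed through 31 genes, chosen by symbol with no threshold on a measured value, out of 35120 genes in the count table. The choice was made with earlier results of these data known. All 31 were found and passed the filter on low counts in every comparison. They were kept apart as an Atf4 arm of 16 genes and an endoplasmic reticulum (ER) arm of 15 genes. The 30 RNA-seq libraries came from white fat of mice described as adipocyte-specific knockouts (Ctnnb1AdKO) and of Ctnnb1fl/fl controls matched for sex and age, in a study of β-catenin deficiency in adipose tissue. Adipocytes, the lipid-filled cells that float after digestion, gave 6 libraries of females labelled knockout, 6 of female controls, 5 of males labelled knockout and 6 of male controls. Stromal-vascular cells (SVC), the pelleted mixture of precursor, immune, endothelial and other cells, gave 4 libraries of males labelled knockout and 3 of male controls. Since the knockout is described as adipocyte-specific, the knockout label of SVC names the animal, and no loss of Ctnnb1 within SVC is described. The control label Ctnnb1fl/fl names the floxed allele, so the controls are not plain wild type. The labels do not name the promoter that drives Cre, the deleted exons, the ages, or whether libraries are separate mice, so p-values measure the spread between these libraries. For every library the labels name both the epididymal and the posterior subcutaneous depot, and all tissue was digested at 37 °C with collagenase in a buffer with glucose and adenosine. Digestion took 20 min for the epididymal and 30 min for the posterior subcutaneous depot.

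The integrated stress response begins when a kinase such as Perk or Gcn2 phosphorylates the translation factor eIF2, which slows protein synthesis in general while Atf4 mRNA is translated more. Atf4 then switches on genes for amino acid synthesis and import, for tRNA charging and for feedback. The unfolded protein response starts at the ER membrane, where Ire1 splices Xbp1 mRNA and Atf6 is cut to free a transcription factor, and both raise the chaperones and the degradation machinery of the ER. Adipocytes fold and secrete large amounts of adipokines through this compartment. Counts per gene measure neither Atf4 translation nor Xbp1 splicing.

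Response elements were searched in the promoters of the 2 arms. The matches below are shown so that the genes can be compared by arm and by direction. Windows of 250 bases before the annotated start were read from RefSeq (GRCm38.p6) for 28 of the 31 genes, not including Manf, Slc7a5 and Hyou1, and both strands were searched. The C/EBP-ATF response element, which Atf4 binds with a C/EBP partner, was written TGATGNAA. It was present in 4 of 15 Atf4-arm windows, in 1 of 13 ER-arm windows and in 1056 of 27025 windows of all genes (3.91%). The 4 Atf4-arm genes are shown on the strand of the gene with the element in capitals. It reads in the reverse direction, as TTGCATCA, in Chac1 and Atf3 and in 1 of the 2 copies of Slc7a11.
Asns, chr6:7693215-7693242, minus strand: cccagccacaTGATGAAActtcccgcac
Chac1, chr2:119351039-119351066, plus strand: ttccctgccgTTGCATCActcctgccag
Slc7a11, chr3:50443643-50443689, minus strand: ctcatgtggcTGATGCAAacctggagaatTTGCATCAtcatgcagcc
Atf3, chr1:191183426-191183453, minus strand: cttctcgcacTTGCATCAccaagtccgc

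The ER stress response element, to which Atf6 binds together with the factor NF-Y, was searched as CCAAT and CCACG with 9 bases of any kind between them. It stood in 6 of 13 ER-arm windows (46.2%), in none of 15 Atf4-arm windows and in 35 of 27025 windows of all genes (0.13%). The 6 genes are Hspa5, Hsp90b1, Calr, Creld2, Ero1b and Pdia6, and Hsp90b1 has 2 copies. A shorter second form, ATTGG and CCACG with 1 base between them, was found in Herpud1 and in 10 windows of all genes (0.037%), and the Xbp1 motif TGACGTGG in no member and in 163 windows of all genes (0.603%). Herpud1 also holds the Atf4-type element, so that both kinds stand in its window without overlapping. Capitals mark the matches in 4 of these genes that differed between the cell fractions, and a match is a description of the letters and not a measured binding site.
Hspa5, chr2:34772015-34772053, plus strand: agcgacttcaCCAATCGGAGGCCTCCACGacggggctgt
Creld2, chr15:88819510-88819548, plus strand: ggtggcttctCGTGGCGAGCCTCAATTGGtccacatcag
Ero1b, chr13:12565672-12565710, plus strand: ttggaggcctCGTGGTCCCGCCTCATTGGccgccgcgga
Herpud1, chr8:94386307-94386397, plus strand: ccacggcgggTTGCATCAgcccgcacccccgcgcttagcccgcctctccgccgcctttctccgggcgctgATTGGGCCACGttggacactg

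Total counts lay between 20484836 and 22209603 per library. Levels are read counts scaled to a common library total (CPM) and adjusted by trimmed mean of M values (TMM), and they cannot be compared between genes because gene length is not taken out. Ctnnb1, the gene the labels name as deleted, did not fall with the knockout label: it ranged over 316 to 407 CPM in female adipocytes labelled knockout against 318 to 377 CPM in female controls, over 321 to 410.0 CPM in male adipocytes labelled knockout against 349 to 380 CPM in male controls, and over 237 to 558 CPM in SVC labelled knockout against 334 to 375 CPM in control SVC. A whole-gene count need not fall when a few exons are lost, so this gene does not check the labels, and each genotype difference below is one between labels. The summed level of 10 adipocyte markers was 45445 to 79866 CPM in adipocytes and 640.4 to 1798 CPM in SVC. Summed macrophage markers reached 74.9 to 1083 CPM in adipocytes and 3207 to 8120 CPM in SVC, and fibroblast and precursor markers 663 to 1536 CPM in adipocytes and 6161 to 11017 CPM in SVC. Among SVC libraries, control replicate 3 was the highest of the 3 controls for 15 of 15 ER-arm genes and 12 of 16 Atf4-arm genes, and control replicate 1 and knockout replicate 4 had the most detected genes (27106 and 27891, against 22452 to 24890 in the other SVC libraries).

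**Figure D1:**
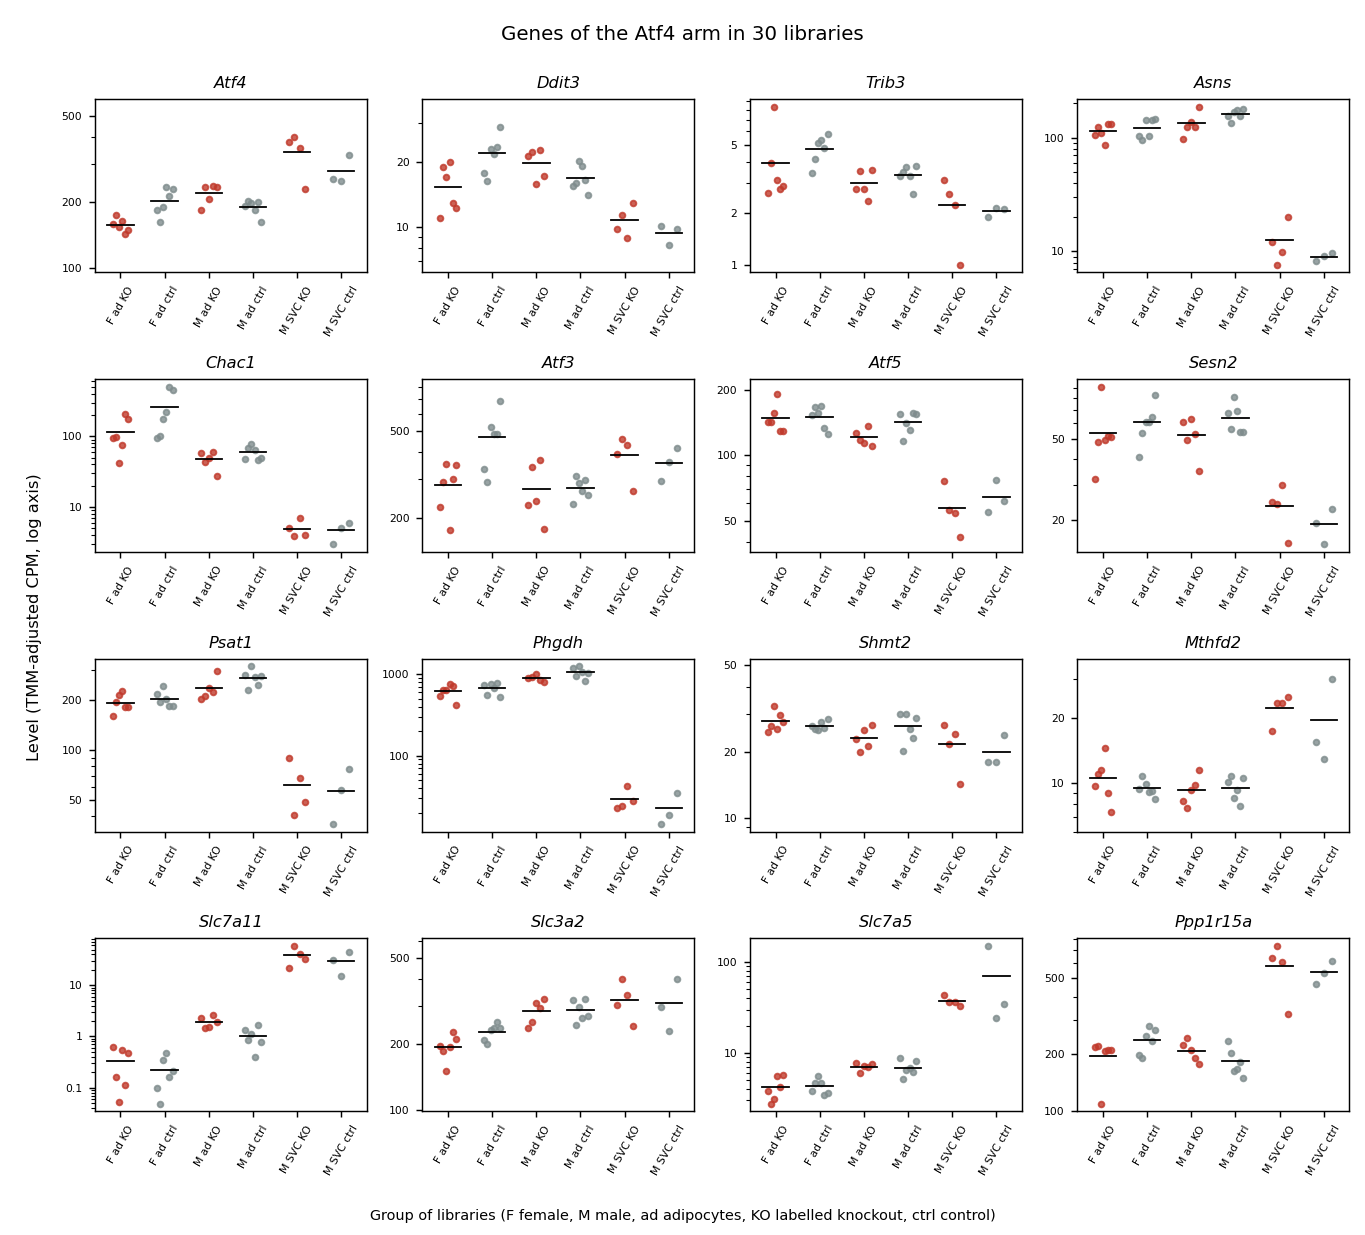
Level of each Atf4-arm gene (TMM-adjusted CPM, log axis that differs between panels) in every library of the 6 groups, red for labelled knockout and grey for control, with a black line at the group mean. Phgdh, Asns, Chac1 and Psat1 lie far higher in adipocytes than in SVC, Slc7a11 and Slc7a5 far lower, and red and grey points of the same sex and fraction overlap in each panel.

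Adipocytes against SVC was the widest split within the 2 arms. In male controls, 25 of 31 genes differed at an adjusted p below 0.05 (edgeR quasi-likelihood test, Benjamini-Hochberg over all genes), 9 higher and 16 lower in adipocytes; of all 17251 genes tested, 77.1% were called, 32.8% higher and 44.2% lower. In males labelled knockout it was 24 of 31, 8 higher and 16 lower, where 76.5% of all genes were called, 31.8% higher and 44.7% lower. The share of members called is thus near the background, and what can be read is which genes went which way. Serine and asparagine synthesis, Chac1 and Xbp1 were higher in adipocytes, while the cystine and large neutral amino acid transporters and most ER chaperones were lower. The 2 comparisons share no library, and 24 genes were called in both with the same direction (70% of all genes tested were). In bulk RNA, fewer cells of a type and less RNA per cell cannot be told apart, and the part of the cell mixture in SVC was not tested.

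Phgdh, the first enzyme of serine synthesis from glycolysis, showed the largest difference. Its level was 832 to 1247 CPM (median 1045) in male control adipocytes, against 14.5, 18.9 and 34.4 CPM in the 3 control SVC libraries (log2 fold change 5.43, SE 0.30, adjusted p = 9.80e-11). The males labelled knockout gave 907, 933, 1001, 856 and 802 CPM in the 5 adipocyte libraries, against 23.1, 24.4, 42.7 and 27.7 CPM in the 4 SVC libraries (log2 fold change 4.82, SE 0.26, adjusted p = 6.76e-11). Every adipocyte library lay above every SVC library, and the fitted fold between the groups was 43.0 in controls and 28.3 in the labelled knockouts. Psat1, the next enzyme of the same route, was also higher, with 203, 212, 235, 222 and 298 CPM in adipocytes labelled knockout against 88.9, 40.5, 67.7 and 48.7 CPM in SVC so labelled (log2 fold change 1.82, SE 0.23, adjusted p = 1.54e-06), and its log2 fold change in controls was 2.13 (adjusted p = 8.25e-07). The one-carbon genes downstream did not follow: Mthfd2, a mitochondrial folate enzyme, was lower in adipocytes, with log2 fold changes of -1.16 (adjusted p = 6.63e-05) in controls and -1.36 (adjusted p = 9.78e-06) in labelled knockouts. Shmt2, which passes the serine carbon to folate in mitochondria, was not called, at 26.2 ± 3.93 CPM in control adipocytes (SD, n = 6) and 20.0 ± 3.48 CPM in control SVC (SD, n = 3).

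Asns makes asparagine and is a textbook Atf4 target, with the element shown above lying 23 to 16 bases before its start. It measured 134 to 177 CPM (median 162) in control adipocytes against 8.28, 9.09 and 9.64 CPM in control SVC (log2 fold change 4.02, SE 0.28, adjusted p = 1.37e-09). With the knockout label it measured 97.2, 124, 136, 124 and 185 CPM in adipocytes against 12.2, 7.68, 9.85 and 20.2 CPM in SVC (log2 fold change 3.30, SE 0.24, adjusted p = 2.39e-09). The groups stood apart without overlap in both genotypes. Chac1, which breaks down glutathione, likewise separated the fractions: 45.8 to 77.9 CPM (median 57.2) in control adipocytes against 2.96, 4.95 and 5.99 CPM in control SVC (log2 fold change 3.55, SE 0.32, adjusted p = 2.74e-08). Its labelled knockouts had 58.8, 43.4, 49.8, 59.0 and 27.0 CPM in adipocytes against 5.00, 3.84, 6.84 and 3.98 CPM in SVC (log2 fold change 3.17, SE 0.28, adjusted p = 2.36e-08), again with no overlap. Sesn2, a brake on mTORC1, and the transcription factor Atf5 were higher in adipocytes as well, with control log2 fold changes of 1.60 and 1.01 (adjusted p = 5.45e-06 and 3.25e-05).

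The transporters of the arm ran the other way. Slc7a11, the light chain of the cystine-glutamate exchanger, was nearly absent from adipocytes: 0.404 to 1.67 CPM (median 0.988) in male controls against 31.0, 15.0 and 44.5 CPM in control SVC (log2 fold change -5.00, SE 0.38, adjusted p = 3.42e-09). In the labelled knockouts it stood at 2.30, 1.44, 1.51, 2.59 and 1.91 CPM in adipocytes against 21.7, 58.3, 41.6 and 32.6 CPM in SVC (log2 fold change -4.40, SE 0.38, adjusted p = 1.78e-08). All adipocyte libraries were below all SVC libraries. Its promoter window holds 2 copies of the Atf4-type element, and those of Asns and Chac1 hold 1 each. Slc7a5, the light chain of the large neutral amino acid transporter, gave 5.14 to 8.73 CPM (median 6.63) in control adipocytes against 151, 24.1 and 34.7 CPM in control SVC (log2 fold change -3.51, SE 0.38, adjusted p = 3.35e-07). SVC control replicate 1 was far above the other controls; without it the log2 fold change was -2.20 (adjusted p = 1.12e-08). Its log2 fold change in the labelled knockouts was -2.51 (adjusted p = 1.66e-05). Slc3a2, the heavy chain that both transporters share, was not called, with log2 fold changes of -0.24 (adjusted p = 0.190) in controls and -0.28 (adjusted p = 0.110) in labelled knockouts.

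The regulators were split. Atf4 mRNA was lower in adipocytes, with means of 190.0 ± 15.6 CPM in control adipocytes (SD, n = 6) against 278 ± 44.5 CPM in control SVC (n = 3), and log2 fold changes of -0.68 (adjusted p = 5.46e-04) in controls and -0.74 (adjusted p = 1.90e-04) in labelled knockouts. Ppp1r15a, the phosphatase subunit that reverses eIF2 phosphorylation, was lower by more: 149 to 234 CPM (median 174) in control adipocytes against 467, 533 and 613 CPM in control SVC (log2 fold change -1.69, SE 0.19, adjusted p = 4.59e-07). In the labelled knockouts Ppp1r15a stood at 222, 242, 209, 191 and 178 CPM in adipocytes against 637, 737, 607 and 325 CPM in SVC (log2 fold change -1.57, SE 0.19, adjusted p = 9.92e-07). Ddit3, the pro-apoptotic factor Chop, was higher in adipocytes, with log2 fold changes of 0.71 (adjusted p = 8.99e-04) in controls and 0.78 (adjusted p = 2.16e-04) in labelled knockouts. Scaling by library totals alone ended both Ddit3 calls (adjusted p = 0.460 and 0.0952). Atf3, a stress-induced transcription factor whose groups overlapped, was lower in control adipocytes by a log2 fold change of -0.51 (adjusted p = 0.0366). That call was lost without adipocyte control replicate 1, 4 or 6 or SVC control replicate 2 or 3, with adjusted p up to 0.160. In the labelled knockouts Atf3 had -0.62 (adjusted p = 0.0100), and -0.68 (adjusted p = 0.0568) with the replicate number of the column names as a block. That block left out the libraries without a partner in the other fraction. Adjusted p for Atf3 over all alternatives ran from 6.89e-05 to 0.0568. Trib3, the pseudokinase that restrains Atf4, was not called in controls, at 0.58 (adjusted p = 0.0757). The immediate-early genes that digestion is known to induce summed to 7937 to 10350.1 CPM in control adipocytes against 9665 to 11482 CPM in control SVC. Of these 16 genes, 5 were called lower and 2 higher in control adipocytes, where 77.1% of all genes were called. In labelled knockouts 9 were lower and 2 higher, where 76.5% of all genes were called. Their part in Atf3 and Ppp1r15a was not tested.

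**Figure D2:**
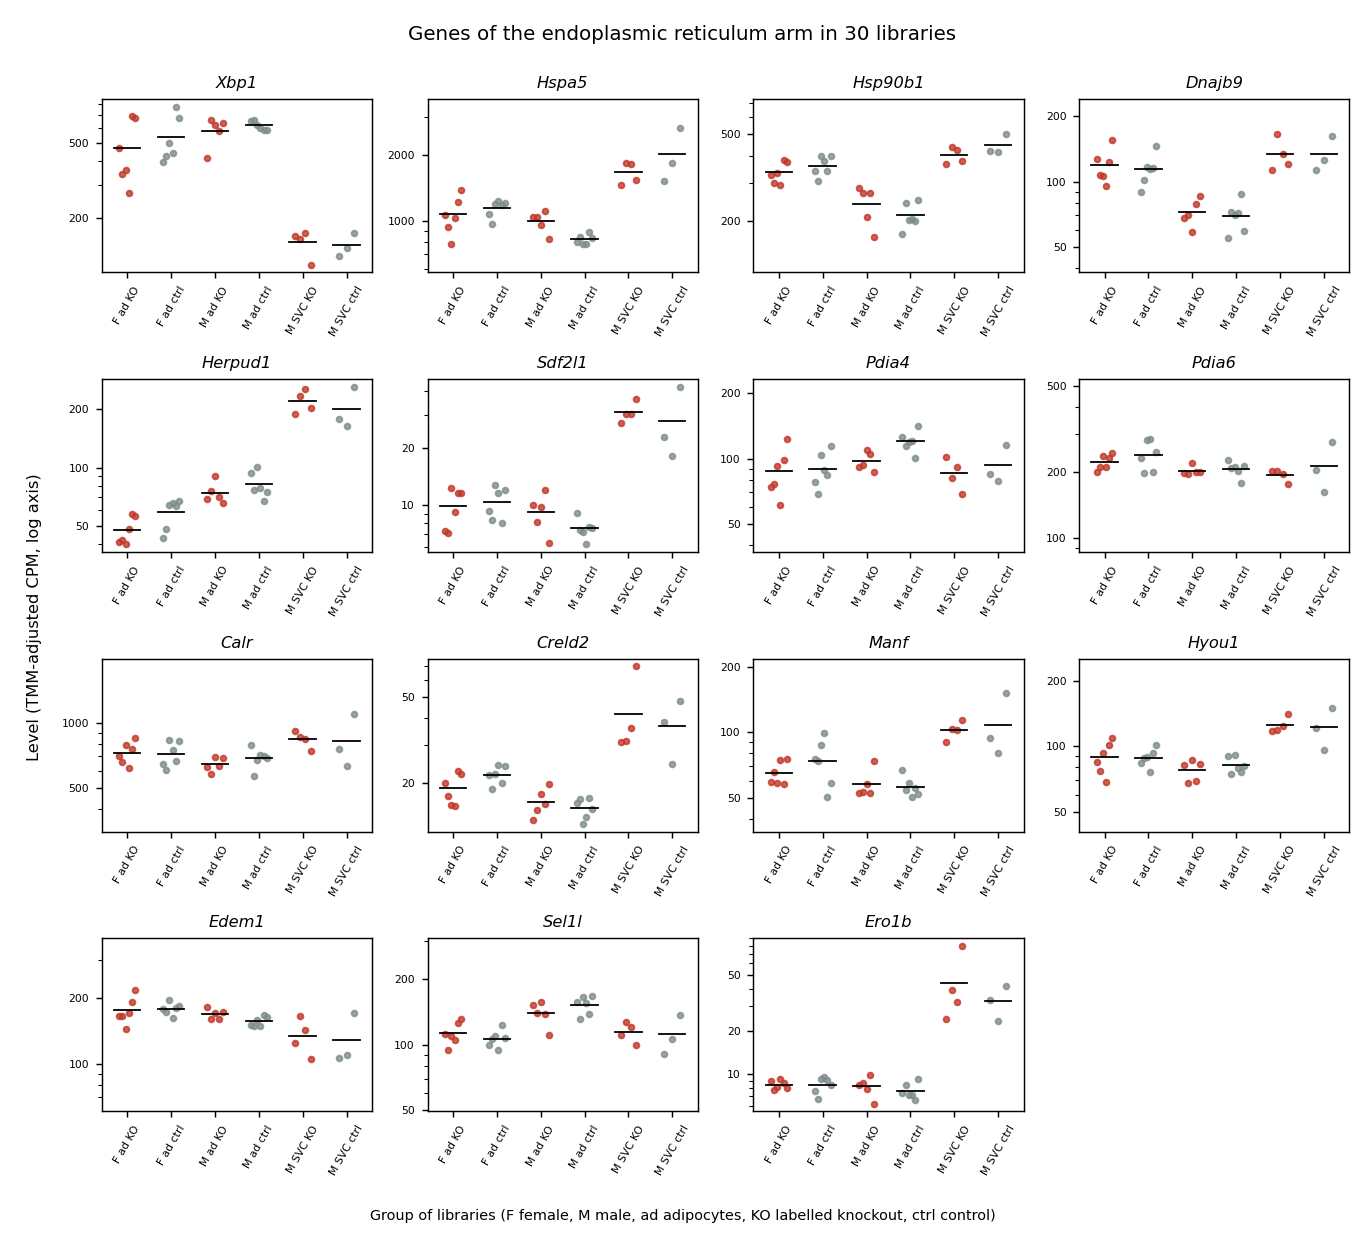
Level of each endoplasmic reticulum gene (TMM-adjusted CPM, log axis that differs between panels) in every library of the 6 groups, red for labelled knockout and grey for control, with a black line at the group mean. Xbp1 stands higher in adipocytes than in SVC, while Hspa5, Sdf2l1, Herpud1, Creld2 and Ero1b stand lower, and Pdia6 lies at a similar level in all groups.

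In the ER arm, Xbp1 and the genes of the folding machinery went in opposite directions. Xbp1, the substrate of Ire1, measured 584 to 661 CPM (median 614) in control adipocytes against 126, 139 and 167 CPM in control SVC (log2 fold change 1.97, SE 0.16, adjusted p = 8.83e-09). In males labelled knockout it was 415, 660.3, 619.7, 579 and 637 CPM in adipocytes against 161, 156, 166 and 114 CPM in SVC (log2 fold change 1.86, SE 0.15, adjusted p = 5.70e-09). No adipocyte library overlapped the SVC range. Sel1l, the scaffold of the ER degradation complex, was the other gene called higher in controls, at 0.32 (adjusted p = 0.0349) with overlapping groups. The call was lost without adipocyte control replicate 3, 4 or 6 or SVC control replicate 1 or 2, with adjusted p up to 0.195. When libraries were scaled by their totals alone, its sign turned to -0.21 (adjusted p = 0.0736).

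Hspa5, the master chaperone BiP that also holds the stress sensors inactive, fell to 779.9 to 889 CPM (median 814) in control adipocytes, against 1523, 1844 and 2675 CPM in control SVC (log2 fold change -1.42, SE 0.15, adjusted p = 1.26e-07). The labelled knockouts showed 1036, 1036, 957, 1107 and 827 CPM in adipocytes against 1455, 1843, 1815 and 1541 CPM in SVC (log2 fold change -0.85, SE 0.14, adjusted p = 4.10e-05). Adipocytes lay below SVC in every library of both genotypes. Sdf2l1, a cofactor that keeps client proteins soluble with BiP, reached 6.22 to 9.09 CPM (median 7.50) in control adipocytes against 22.7, 18.1 and 42.0 CPM in control SVC (log2 fold change -2.0, SE 0.21, adjusted p = 2.02e-07). The same gene with the knockout label had 10.1, 8.12, 9.81, 11.9 and 6.29 CPM in adipocytes against 27.2, 30.3, 30.1 and 36.3 CPM in SVC (log2 fold change -1.85, SE 0.21, adjusted p = 4.97e-07). Hsp90b1, the ER form of Hsp90, was 175 to 249.9 CPM (median 203) in control adipocytes against 419.9, 418 and 502 CPM in control SVC (log2 fold change -1.20, SE 0.16, adjusted p = 2.35e-06), without overlap, and its log2 fold change in labelled knockouts was -0.85 (adjusted p = 8.85e-05).

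Herpud1, which brings substrates to the degradation complex, had 67.0 to 101 CPM (median 77.4) in control adipocytes against 177, 163 and 262 CPM in control SVC (log2 fold change -1.42, SE 0.15, adjusted p = 2.13e-07). With the knockout label the values were 68.7, 76.1, 90.4, 70.3 and 65.3 CPM in adipocytes against 189, 236, 254 and 204 CPM in SVC (log2 fold change -1.68, SE 0.15, adjusted p = 2.46e-08), and the fractions did not overlap. Ero1b, the oxidase that supplies disulfide bonds, showed 6.57 to 9.26 CPM (median 7.29) in control adipocytes against 33.1, 23.6 and 41.6 CPM in control SVC (log2 fold change -2.23, SE 0.27, adjusted p = 8.41e-07). Among labelled knockouts Ero1b was at 8.38, 8.71, 7.87, 9.88 and 6.24 CPM in adipocytes against 24.5, 38.9, 32.4 and 79.4 CPM in SVC (log2 fold change -2.52, SE 0.27, adjusted p = 2.21e-07), with SVC replicate 4 the highest. Creld2, a secreted protein with disulfide isomerase activity, and Hyou1, the nucleotide exchange factor of BiP, were called lower too, with control log2 fold changes of -1.40 and -0.71 (adjusted p = 3.33e-05 and 5.27e-05). In the labelled knockouts Creld2 had 13.4, 14.8, 17.8, 15.9 and 19.7 CPM in adipocytes against 31.0, 31.2, 36.0 and 69.8 CPM in SVC (log2 fold change -1.47, SE 0.23, adjusted p = 1.72e-05). Hyou1 had 82.3, 68.0, 86.6, 69.1 and 83.1 CPM in those adipocytes against 118, 119, 124 and 141 CPM in those SVC (log2 fold change -0.80, SE 0.12, adjusted p = 1.12e-05).

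The remaining members that were called lower in adipocytes of both genotypes were the secreted survival factor Manf, the BiP co-chaperone Dnajb9 and the lectin chaperone Calr, with control log2 fold changes of -1.07, -1.07 and -0.39. Calr had an adjusted p of 0.0178 in controls, and leaving out SVC control replicate 3 gave -0.15 (adjusted p = 0.286), within 9.36e-07 to 0.286 over all alternatives. In labelled knockouts, the block on replicate number gave Calr -0.47 (adjusted p = 0.0648) and left 22 of 31 members called. That fit held only libraries with a partner, 3 pairs per genotype, so pairing and fewer libraries cannot be told apart there. The adjusted p of Calr over all alternatives ran from 7.03e-07 to 0.0648. The disulfide isomerases Pdia4 and Pdia6, and Edem1, which hands misfolded glycoproteins to degradation, did not pass in either genotype, at 0.24, -0.17 and 0.15 in controls. Over the 15 ER-arm genes the median log2 fold change was -1.07 in controls and -0.85 in labelled knockouts, and over the 16 Atf4-arm genes 0.42 and 0.15, beside -0.29 over all genes in both. Scaling by library totals alone moved the all-gene median to -0.85 in controls and -0.75 in labelled knockouts and the split of called members in controls to 7 higher and 20 lower. Relative to the all-gene median, 10 ER-arm genes were below and 5 above, and 10 Atf4-arm genes above and 6 below, in both genotypes. These counts were the same under each of 4 scalings. A scaling factor moves all genes nearly alike, so the counts could hardly differ and do not decide between the scalings.

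**Figure D3:**
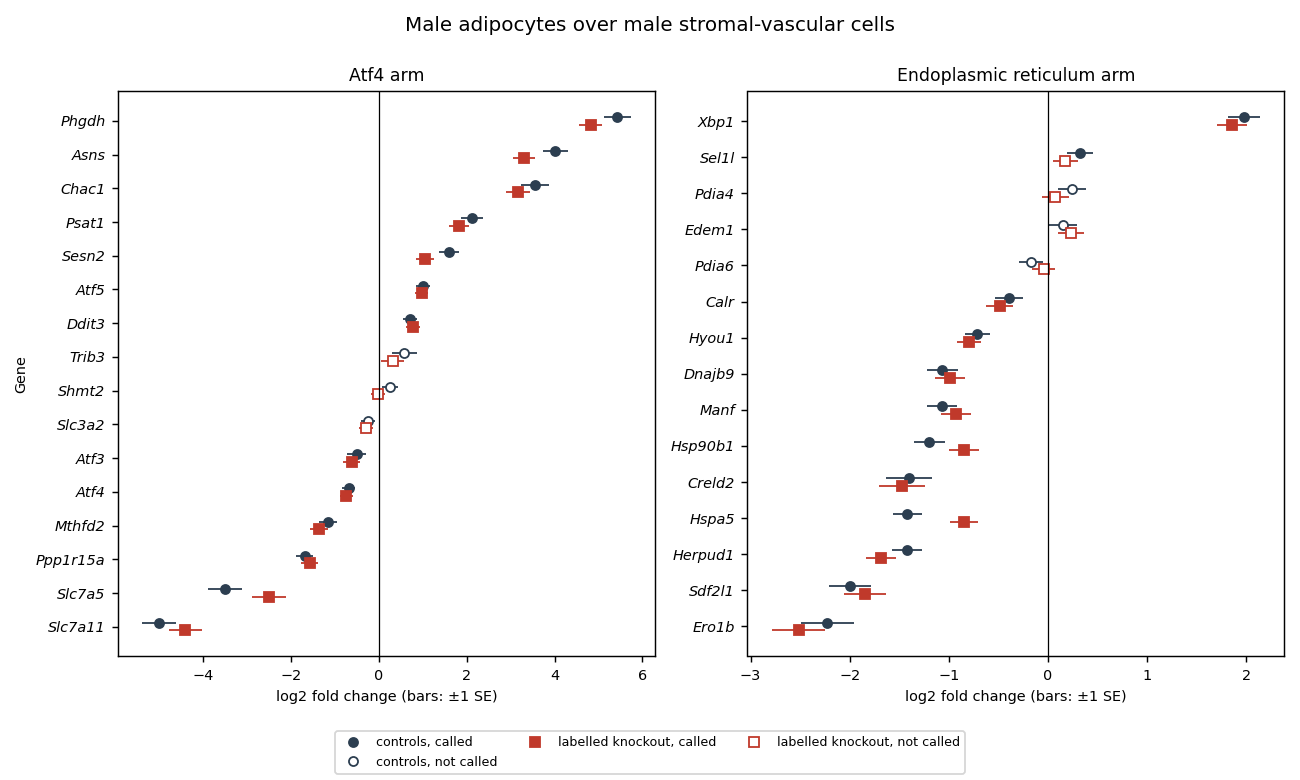
Log2 fold change of male adipocytes over male SVC (x axis, bars ±1 SE) for each gene of the 2 arms (y axis), in controls (dark circles) and labelled knockouts (red squares), filled where the adjusted p is below 0.05. Phgdh at 5.43 and Slc7a11 at -5.00 in controls bound the Atf4 arm, while Xbp1 at 1.97 is the highest gene of an ER arm that mostly lies below 0.

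Related genes outside the 31 were counted in the same controls, where 77.1% of all genes were called, 32.8% higher and 44.2% lower. The lists were chosen with earlier results of these data known, and they were not tested against these shares. Of 18 sensors and translation controls, 8 were higher and 6 lower in adipocytes: Eif2ak3, which encodes Perk, was lower (-2.15), and Eif2b3 and Eif2b1, subunits of the exchange factor that eIF2 phosphorylation blocks, were higher (2.16 and 1.85). Of 23 other Atf4 targets, 10 were higher and 9 lower, with Stc2, Gpt2 and Eif4ebp1 up by 4.08, 4.60 and 4.65 on the log2 scale. Aminoacyl-tRNA synthetases were higher in 11 of 15 with none lower (Mars1 1.96, Aars1 1.73, Sars1 1.41), although scaling by library totals gave 7 higher and 4 lower. All 15 lay above the all-gene median, a position that scaling hardly changes and that does not decide between these counts. Other ER folding genes were mostly lower, 16 of 28 against 5 higher, among them Spcs3 (-1.92) and Dnajc10 (-1.34), with Fkbp2 higher (1.57). Degradation genes were higher in 11 of 17 and lower in 4 (Derl1 1.73, Ufd1 1.40, Nploc4 1.35), against 5 and 5 with library totals. Genes of the mitochondrial unfolded protein response were higher in 11 of 13 with none lower (Trap1 2.99, Clpp 2.76, Lonp1 2.18), and with library totals 11 higher and 1 lower. Library totals also gave 5 higher and 9 lower for the sensors, 8 and 12 for the other Atf4 targets and 2 and 21 for the folding genes. In labelled knockouts 76.5% of all genes were called, 31.8% higher and 44.7% lower. The list counts there were 9 higher and 4 lower for sensors, 11 and 9 for other Atf4 targets and 12 and 1 for synthetases. They were 7 and 12 for folding genes, 12 and 2 for degradation genes and 12 and 0 for mitochondrial stress genes. With library totals these 6 list counts became, in the same order, 4 and 8, 9 and 10, 7 and 3, 2 and 20, 5 and 5, and 11 and 0.

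Between the sexes, female adipocytes of both genotypes had more Chac1, Hsp90b1 and Dnajb9 and less Slc7a11, Slc7a5, Slc3a2, Phgdh, Herpud1 and Sel1l than male adipocytes, by calls in both comparisons. Hspa5 and Creld2 were called higher in female controls and not in females labelled knockout, and that contrast did not pass its own test. In controls 21 of 31 genes were called, 12 higher and 9 lower in females, where 43.8% of all 14227 genes were called, 23.7% higher and 20.1% lower. The ER arm gave 8 higher and 3 lower of 15, and the Atf4 arm 4 higher and 6 lower of 16. In adipocytes labelled knockout, 12 genes were called, 5 higher and 7 lower, where 34.6% of all genes were called, 18.2% higher and 16.5% lower. There the ER arm gave 2 higher and 2 lower of 15, and the Atf4 arm 3 higher and 5 lower of 16. The split over both arms was 3 and 7 with DESeq2 size factors and 3 and 9 with library totals. In the 2 comparisons, which share no library, 9 genes were called with the same direction and 0 with opposite ones (26.6% of all genes tested had the same call in both). The median log2 fold change of the ER arm was 0.23 in controls and 0.12 in labelled knockouts, and that of the Atf4 arm 0.04 and -0.14, beside 0.05 and 0.04 over all genes. Sex cannot be told apart from depot, from the digestion time of each depot or from collection, since the labels give no separate depot or date. Marker sums in controls moved with sex too: macrophage markers were 252 to 546 CPM in females against 557 to 1083 CPM in males (6 of 10 called lower), preadipocyte and fibroblast markers 1033 to 1536 CPM in females against 672 to 1012 CPM in males (5 of 9 called higher), and brown and beige markers 31.1 to 163 CPM in females against 9.47 to 93.4 CPM in males (5 of 8 called higher). In labelled knockouts macrophage markers were 74.9 to 310.1 CPM in females against 559.8 to 954 CPM in males (10 of 10 called lower), preadipocyte and fibroblast markers 1113 to 1484 CPM in females against 663 to 966 CPM in males (5 of 9 called higher), and brown and beige markers 168 to 321 CPM in females against 15.0 to 44.8 CPM in males (8 of 8 called higher). The part of these markers in the sex differences was not tested.

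In controls Chac1 gave the largest sex difference of the Atf4 arm, with 95.8 to 504 CPM (median 201) in female controls against 45.8 to 77.9 CPM (median 57.2) in male controls (log2 fold change 2.16, SE 0.40, adjusted p = 1.65e-04). No female control overlapped the male range, and the female libraries spread widely among themselves. In labelled knockouts it was 42.3 to 208 CPM (median 94.9) in females against 58.8, 43.4, 49.8, 59.0 and 27.0 CPM in males (log2 fold change 1.28, SE 0.41, adjusted p = 0.0190), where the ranges overlapped. That call was lost without male knockout replicate 5 or female knockout replicate 5, with adjusted p up to 0.0537. Slc7a11 was lower in females and near a few counts per library there: 0.0491 to 0.475 CPM (median 0.186) in female controls against 0.404 to 1.67 CPM (median 0.988) in male controls (log2 fold change -2.12, SE 0.46, adjusted p = 6.92e-04), with a small overlap. The labelled knockouts held 0.0530 to 0.610 CPM (median 0.316) in females against 2.30, 1.44, 1.51, 2.59 and 1.91 CPM in males (log2 fold change -2.54, SE 0.43, adjusted p = 8.18e-05), with no overlap. Slc7a5 measured 3.41 to 5.54 CPM (median 4.21) in female controls against 5.14 to 8.73 CPM (median 6.63) in male controls (log2 fold change -0.65, SE 0.17, adjusted p = 0.00366), with overlap. With the knockout label, Slc7a5 was at 2.76 to 5.68 CPM (median 4.00) in females against 7.66, 5.99, 7.09, 6.95 and 7.45 CPM in males (log2 fold change -0.73, SE 0.18, adjusted p = 0.00274). Its partner Slc3a2 was at 151 to 228 CPM (median 196) in females against 239, 254, 310.3, 293 and 322 CPM in males so labelled (log2 fold change -0.53, SE 0.10, adjusted p = 3.33e-04), and neither gene overlapped between the sexes. In controls Slc3a2 had -0.30 (adjusted p = 0.0165).

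In controls Phgdh and Psat1 were lower in females, like the transporters. Phgdh stood at 527 to 770.1 CPM (median 712) in female controls against 832 to 1247 CPM (median 1045) in male controls (log2 fold change -0.62, SE 0.13, adjusted p = 7.35e-04), without overlap. With the knockout label it was 417 to 768 CPM (median 642) in females against 907, 933, 1001, 856 and 802 CPM in males (log2 fold change -0.52, SE 0.14, adjusted p = 0.00565), again apart. Psat1 gave 183 to 240.5 CPM (median 197) in female controls against 228 to 316 CPM (median 275) in male controls (log2 fold change -0.38, SE 0.10, adjusted p = 0.00486), and it was not called in labelled knockouts, at -0.27 (adjusted p = 0.0617). Atf3 was higher in female controls, at 291 to 690.1 CPM (median 483) against 231 to 310.0 CPM (median 277) in male controls (log2 fold change 0.80, SE 0.20, adjusted p = 0.00280), but 0.07 (adjusted p = 0.826) between the sexes in labelled knockouts. Asns was lower in female controls, at -0.36 (adjusted p = 0.0350), a call lost without female control replicate 1, 2 or 4 (adjusted p up to 0.0715). Ppp1r15a was higher at 0.40 (adjusted p = 0.0276), lost without male or female control replicate 3, 4, 5 or 6 (adjusted p up to 0.102). Ddit3 was higher at 0.40 (adjusted p = 0.0390), lost in 16 of the 23 fits without 1 library (adjusted p up to 0.153, without female control replicate 6). In labelled knockouts Atf5 and Shmt2 were higher in females, at 0.31 (adjusted p = 0.0328) and 0.27 (adjusted p = 0.0375), and lost their calls in 18 and 19 of those 23 fits. Atf4 was not called in controls, at 0.13 (adjusted p = 0.284). In labelled knockouts it was lower in females with no overlap, at 142 to 175 CPM (median 157) against 183, 235, 206, 238 and 235 CPM in males (log2 fold change -0.46, SE 0.10, adjusted p = 7.96e-04).

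Among ER genes, Hsp90b1 was higher in females, with 307 to 399.6 CPM (median 359) in female controls against 175 to 249.9 CPM (median 203) in male controls (log2 fold change 0.79, SE 0.12, adjusted p = 1.90e-05). Dnajb9 showed 89.7 to 146 CPM (median 115) in female controls against 55.3 to 88.1 CPM (median 70.9) in male controls (log2 fold change 0.74, SE 0.13, adjusted p = 8.62e-05). Neither gene overlapped between the sexes. In the labelled knockouts Hsp90b1 was 294 to 382 CPM (median 329.6) in females against 283, 269.8, 209, 270.2 and 168 CPM in males (log2 fold change 0.49, SE 0.13, adjusted p = 0.00419). Dnajb9 was 95.2 to 156 CPM (median 115) in those females against 68.4, 70.6, 58.9, 78.7 and 85.6 CPM in those males (log2 fold change 0.73, SE 0.14, adjusted p = 2.52e-04), and both again stood apart. Hspa5 was 968 to 1227 CPM (median 1187) in female controls against 779.9 to 889 CPM (median 814) in male controls (log2 fold change 0.51, SE 0.11, adjusted p = 7.20e-04), but 0.12 (adjusted p = 0.434) in labelled knockouts. Creld2 likewise had 18.7 to 24.3 CPM (median 21.9) in female controls against 12.8 to 17.0 CPM (median 15.6) in male controls (log2 fold change 0.54, SE 0.11, adjusted p = 4.63e-04) and 0.23 (adjusted p = 0.132) with the knockout label. For Hspa5 and Creld2 the difference between these sex differences did not pass the test, as given with the knockout label below.

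Sel1l and Herpud1, both of ER degradation, were lower in females. Sel1l had 95.1 to 123 CPM (median 107) in female controls against 132 to 168 CPM (median 156) in male controls (log2 fold change -0.48, SE 0.09, adjusted p = 2.55e-04), with no overlap. In labelled knockouts Sel1l was 94.4 to 131 CPM (median 111) in females against 153, 139.6, 157, 138 and 111 CPM in males (log2 fold change -0.29, SE 0.10, adjusted p = 0.0254), with overlap, and the call was lost without male knockout replicate 3 (adjusted p = 0.0551). Herpud1 had 43.2 to 67.3 CPM (median 63.6) in female controls against 67.0 to 101 CPM (median 77.4) in male controls (log2 fold change -0.45, SE 0.12, adjusted p = 0.00490), with a small overlap. In the labelled knockouts Herpud1 was 40.1 to 57.7 CPM (median 45.0) in females against 68.7, 76.1, 90.4, 70.3 and 65.3 CPM in males (log2 fold change -0.62, SE 0.13, adjusted p = 6.47e-04), without overlap. Pdia4 was the isomerase that was lower in female controls, at -0.39 (adjusted p = 0.0210). Manf, Sdf2l1, Edem1 and Pdia6 were higher, by 0.23 to 0.48 on the log2 scale, and these calls were lost without female control replicate 4 for Manf (adjusted p = 0.0636), without male control replicate 3 or 4 or female control replicate 3, 4 or 6 for Sdf2l1 (up to 0.0696), and in 18 of 23 fits without 1 library each for Edem1 and Pdia6 (up to 0.103 and 0.148). Xbp1 was not called, with 536 ± 153 CPM in female controls and 619.6 ± 33.7 CPM in male controls (SD, n = 6 each).

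**Figure D4:**
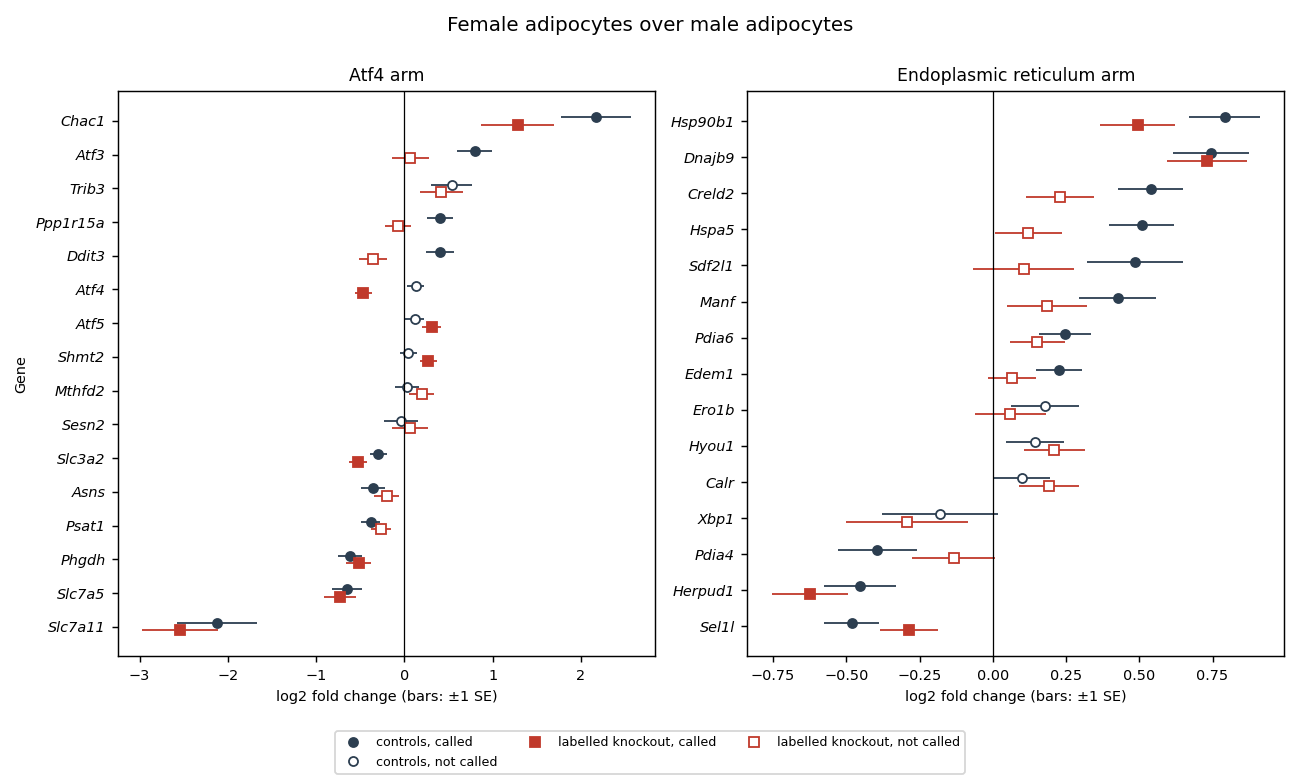
Log2 fold change of female over male adipocytes (x axis, bars ±1 SE) for each gene of the 2 arms (y axis), in controls (dark circles) and labelled knockouts (red squares), filled where the adjusted p is below 0.05. Chac1 at 2.16 and Slc7a11 at -2.12 in controls lie at opposite ends of the Atf4 arm, and Hsp90b1 at 0.79 leads the ER arm.

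The related lists were counted by sex in control adipocytes, where 43.8% of all genes were called, 23.7% higher and 20.1% lower in females. They were not tested against these shares. Other ER folding genes had 11 higher and 5 lower of 27 in females (8 and 6 with DESeq2 size factors), with Sec11c (0.60) and Erp44 (0.33) higher and Sec24d (-0.81) lower. Aminoacyl-tRNA synthetases had 1 higher, Tars1 (0.31), and 7 lower of 15, led by Aars1 (-0.63) and Vars1 (-0.38). Other Atf4 targets had 4 higher and 6 lower of 22, and Slc1a5, Stc2 and Aldh18a1 were lower by more than 1 on the log2 scale (-1.18, -1.23 and -1.16). Sensors had 2 higher and 4 lower of 18 (Eif2s1 0.61, Eif2b5 -0.39, Nck1 0.37), degradation genes 3 higher and 5 lower of 17 (Nploc4 -0.57, Edem2 -0.40, Os9 -0.46), and mitochondrial stress genes 3 higher and 1 lower of 13 (Clpx 0.57, Dele1 -0.54, Hspd1 0.52). In labelled knockouts 34.6% of all genes were called, 18.2% higher and 16.5% lower. There the folding genes had 5 higher and 5 lower, the synthetases 1 higher and 0 lower, and other Atf4 targets 3 higher and 7 lower. Sensors had 3 higher and 0 lower, degradation genes 0 higher and 4 lower, and mitochondrial stress genes 3 higher and 0 lower. With library totals those splits were 1 higher and 6 lower for folding genes, 0 and 2 for synthetases, 2 and 9 for other Atf4 targets, 2 and 5 for sensors, 0 and 8 for degradation genes and 1 and 1 for mitochondrial stress genes. Whether the lists differed between the genotypes was not tested.

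Knockout label against control was the question of the study, and no gene of either arm was called. In female adipocytes 0 of 31 passed, while 0.471% of all genes were called (0.323% higher and 0.148% lower). The unadjusted p was below 0.05 for 6 members and for 1469 of all 14227 genes. In male adipocytes 0 of 31 passed, while 0.0703% of all genes were called (0.0211% higher and 0.0492% lower). Before adjustment 3 members there were below 0.05, as were 1861 of all 14227 genes. In male SVC 0 of 31 passed and 0 genes of 16404 were called, with 0 members and 429 genes at an unadjusted p below 0.05; DESeq2 called 0 members and 65 genes there. None of the 6 lists of related genes had a called gene in any of these 3 comparisons. The estimates ran from -1.18 to 0.53 in females, from -0.29 to 0.94 in males and from -1.0 to 0.47 in SVC on the log2 scale.

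In females the 2 members of smallest p in each arm, Atf4 and Atf3 and then Herpud1 and Creld2, were all estimated below 0. Atf4 was at 159, 175, 155, 163, 142 and 149 CPM in the 6 libraries labelled knockout against 184, 163, 191, 236, 214 and 231 CPM in the 6 controls (log2 fold change -0.36, SE 0.09, adjusted p = 0.0881). All 6 labelled knockouts lay below the control mean, and the groups overlapped only through control replicate 2. DESeq2 gave Atf4 an adjusted p of 0.0183, and edgeR without female control replicate 2 gave 0.0363, within 0.0183 to 0.261 over all alternatives. Atf3 was at 223, 291, 354, 175, 301 and 348 CPM in the labelled knockouts against 336, 291, 523, 484, 483 and 690.1 CPM in controls (log2 fold change -0.73, SE 0.20, adjusted p = 0.117), with overlap through control replicates 1 and 2, and DESeq2 gave it 0.0339, within 0.0339 to 0.289 over all alternatives. Female control replicate 2 was the lowest of its group for 7 of 16 Atf4-arm and 7 of 15 ER-arm genes. Ddit3 was at 11.0, 18.9, 17.0, 19.9, 12.9 and 12.3 CPM in labelled knockouts against 17.8, 16.3, 22.9, 21.8, 23.4 and 29.0 CPM in controls (log2 fold change -0.50, SE 0.16, adjusted p = 0.182), and Chac1, from the ranges given above, had -1.18 (adjusted p = 0.229). In the ER arm, Herpud1 was at 41.4, 42.3, 40.1, 47.8, 57.7 and 56.2 CPM in labelled knockouts against 43.2, 47.9, 63.7, 65.6, 63.6 and 67.3 CPM in controls (log2 fold change -0.30, SE 0.12, adjusted p = 0.389), with replicates 5 and 6 the highest of the labelled knockouts. Creld2 was at 20.0, 17.3, 15.8, 15.6, 22.6 and 22.0 CPM in labelled knockouts against 21.8, 18.7, 22.0, 24.3, 19.9 and 23.9 CPM in controls (log2 fold change -0.20, SE 0.11, adjusted p = 0.542), and the groups of both genes overlapped.

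Marker sums in females, given here beside these estimates, were partly matched in males. Macrophage markers summed to 74.9 to 310.1 CPM in females labelled knockout against 252 to 546 CPM in controls, with estimates below 0 for 10 of 10 markers and 1 of them, C1qc, called. Heat shock genes summed to 4842 to 12691 CPM in labelled knockouts against 7404 to 18500 CPM in controls (8 of 8 below 0, none called). Immediate-early genes summed to 6399 to 9914 CPM in labelled knockouts against 6973 to 11474 CPM in controls (13 of 16 below 0, none called). Mesothelial genes summed to 9.54 to 20.7 CPM in labelled knockouts against 11.1 to 84.8 CPM in controls (10 of 10 below 0, none called). Brown and beige markers summed to 168 to 321 CPM in the labelled knockouts against 31.1 to 163 CPM in controls (3 of 8 called higher). No marker of these lists was at 0 in every library of a group. Their part in the Atf4 and Atf3 estimates was not tested. Over the 16 Atf4-arm genes the median log2 fold change was -0.14, with 13 below 0, and over the 15 ER-arm genes -0.07, beside 0.01 over all genes.

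In males the Atf4 estimate lay above 0, and again no member passed. Atf4 was at 183, 235, 206, 238 and 235 CPM in the 5 libraries labelled knockout, against a range of 161 to 203 CPM (median 195) in the 6 controls (log2 fold change 0.23, SE 0.10, adjusted p = 0.324). 4 of the 5 labelled knockouts were above every control. Slc7a11 was at 2.30, 1.44, 1.51, 2.59 and 1.91 CPM in labelled knockouts against 0.404 to 1.67 CPM (median 0.988) in controls (log2 fold change 0.94, SE 0.38, adjusted p = 0.289). Hspa5 was at 1036, 1036, 957, 1107 and 827 CPM in labelled knockouts against 779.9 to 889 CPM (median 814) in controls (log2 fold change 0.30, SE 0.11, adjusted p = 0.270), and Pdia4 at 91.8, 93.3, 110.0, 104 and 86.7 CPM in labelled knockouts against 101 to 141 CPM (median 119.9) in controls (log2 fold change -0.29, SE 0.14, adjusted p = 0.388). Every one of these 4 pairs of groups overlapped. In the same males, mesothelial genes summed to 6.34 to 28.3 CPM in labelled knockouts against 19.2 to 134.9 CPM in controls (10 of 10 below 0), and heat shock genes to 5348 to 10133 CPM in labelled knockouts against 4558 to 15779 CPM in controls (7 of 8 below 0). Macrophage markers summed to 559.8 to 954 CPM in labelled knockouts against 557 to 1083 CPM in controls (7 of 10 below 0), and immediate-early genes to 7851 to 9939 CPM in labelled knockouts against 7937 to 10350.1 CPM in controls (10 of 16 above 0). Brown and beige markers summed to 15.0 to 44.8 CPM in labelled knockouts against 9.47 to 93.4 CPM in controls (5 of 8 below 0). None of these male markers was called, and their part was not tested. The difference of the knockout-label effects, female minus male, was called for 0 of 31 members, where 0.0141% of all genes were called, 0.00703% in each direction. It was -0.59 for Atf4 (SE 0.14, unadjusted p = 0.000221, adjusted p = 0.277), and DESeq2 gave Atf4 an adjusted p of 0.0295, within 0.0295 to 0.504 over all alternatives. Ddit3 in males was at 21.2, 22.3, 15.7, 22.7 and 17.3 CPM in the labelled knockouts against 14.1 to 20.2 CPM (median 16.2) in controls. For Ddit3 the difference was -0.76 (adjusted p = 0.367), for Hspa5 -0.39 (adjusted p = 0.520) and for Creld2 -0.31 (adjusted p = 0.592).

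Averaged over the sexes, 0 of 31 members were called, where 0.759% of all genes were called (0.415% higher and 0.344% lower). Before adjustment 4 members were below 0.05, 3 in the Atf4 arm and 1 in the ER arm, as were 2137 of all 14227 genes. The 2 members of smallest p in the Atf4 arm were Chac1 at -0.73 (adjusted p = 0.216) and Atf3 at -0.36 (adjusted p = 0.238). In the ER arm they were Herpud1 at -0.21 (adjusted p = 0.269) and Pdia4 at -0.16 (adjusted p = 0.452). Among the related lists, Vldlr, a lipoprotein receptor that Atf4 is known to induce, was the one gene called, higher in the libraries labelled knockout (log2 fold change 0.39, SE 0.08, adjusted p = 0.0173).

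**Figure D5:**
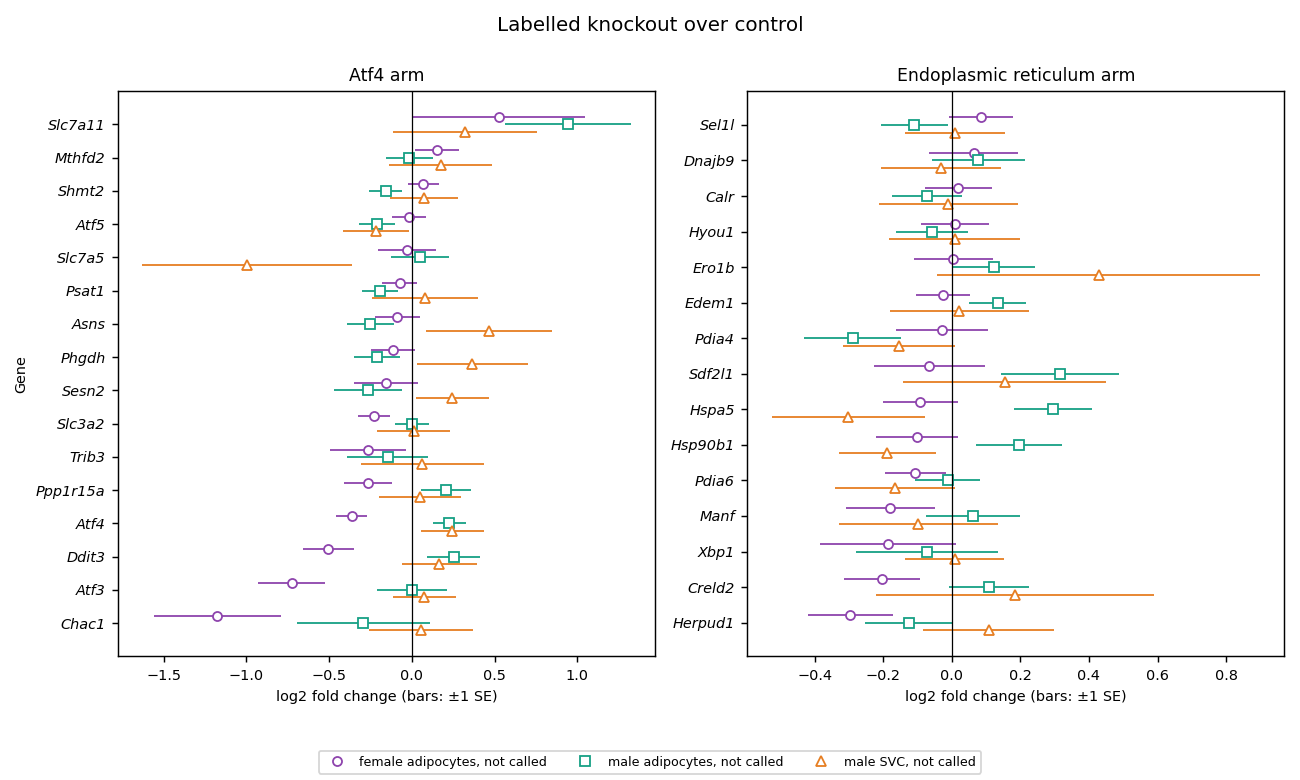
Log2 fold change of labelled knockout over control (x axis, bars ±1 SE; the scales of the 2 panels differ) for each gene of the 2 arms (y axis), in female adipocytes (circles), male adipocytes (squares) and male SVC (triangles). All symbols are open because no gene had an adjusted p below 0.05, and the lowest estimate in females is Chac1 at -1.18.

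In SVC the 2 members of smallest p in each arm did not pass. Slc7a5 was at 43.3, 36.2, 36.0 and 32.7 CPM in the labelled knockouts against 151, 24.1 and 34.7 CPM in controls (log2 fold change -1.0, SE 0.63, adjusted p = 0.968), an estimate that turned to 0.33 (adjusted p = 1.00) without control replicate 1; adjusted p over all alternatives ran from 0.774 to 1.00. Atf4 was at 379, 397, 354 and 230.4 CPM in labelled knockouts against 255, 250.2 and 329.6 CPM in controls (log2 fold change 0.24, SE 0.19, adjusted p = 0.968), with knockout replicate 4 below all controls. Hspa5 was at 1455, 1843, 1815 and 1541 CPM in labelled knockouts against 1523, 1844 and 2675 CPM in controls (log2 fold change -0.30, SE 0.22, adjusted p = 0.968), and Hsp90b1 at 366, 437, 423 and 379 CPM in labelled knockouts against 419.9, 418 and 502 CPM in controls (log2 fold change -0.19, SE 0.14, adjusted p = 0.968). Control replicate 3 held the highest value of the 7 for both chaperones. In SVC, heat shock genes summed to 5734 to 6425 CPM in labelled knockouts against 6280.5 to 17480 CPM in controls (8 of 8 below 0), mesothelial genes to 99.9 to 339 CPM in labelled knockouts against 225 to 518 CPM in controls (9 of 10 below 0), and adipocyte markers to 1323 to 1798 CPM in labelled knockouts against 640.4 to 1387 CPM in controls (10 of 10 above 0). None of these was called, and their part was not tested. The knockout-label effect in male adipocytes minus that in SVC was called for 0 of 31 members and for 0% of all 17251 genes, of which 1149 had an unadjusted p below 0.05; DESeq2 called 0 members and 23 genes. The 2 members of smallest p in the ER arm were Hspa5 at 0.57 (adjusted p = 0.686) and Hsp90b1 at 0.35 (adjusted p = 0.772). In the Atf4 arm they were Asns at -0.72 (adjusted p = 0.732) and Phgdh at -0.60 (adjusted p = 0.756).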

How the data were processed

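RNA from isolated adipocytes and SVC was sequenced in 30 libraries of 6 groups, taken from the sample labels. The table used holds raw read counts per Ensembl gene as the authors deposited them. FastQC 0.12.1, STAR 2.7.11a, DESeq2 and the mm39 build are named in the submitters' processing notes; how reads were counted, with which annotation and whether by strand, is not given in those notes; the libraries were strand-specific, per the labels. The deposited regularised log2 values were not used. All 31 members were matched by symbol to Ensembl identifiers (33501 of 35120 identifiers have a symbol). Promoter windows were read from RefSeq on GRCm38.p6, and no coordinate was moved between builds.

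Counts were tested with edgeR 4.0.16 in R 4.3.3 (filterByExpr with a minimum count of 10, TMM scaling, quasi-likelihood F test, Benjamini-Hochberg over all genes, called below 0.05), in fits of 23 adipocyte, 7 SVC and 18 male libraries. Levels are TMM-adjusted CPM computed over the 30 libraries. Within the named-gene rule, library values are given for up to 6 called members per arm and comparison, or for the 2 of smallest p per arm where none was called, and up to 3 called genes per related list. The members and lists were chosen with earlier results of these data known, and the sex comparison within labelled knockouts, scaling by library totals, and the fits without 2 SVC libraries were added after the data were seen. Alternatives were DESeq2 1.42.0, other scalings, no filter, 2 groups alone, a replicate block, and leaving out each library. For adipocytes over SVC the replicate block kept only libraries with a partner by column number, 3 pairs per genotype. No 2 replicates were alike within sampling noise (lowest chi-square per degree of freedom 12.94). Replicate numbers in the column names join adipocytes and SVC of the labelled knockouts. In 3 of 3 pairs the deviations from the group means correlated, with r of 0.148 to 0.154, against -0.218 to 0.096 in other pairs. The numbers were therefore taken to pair these libraries. The reported fits still hold no block and treat all libraries as unpaired, and the block is given only as an alternative.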

Additional observations from a re-analysis of the deposited data

Results flagged for a closer look

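In 6 of 155 sets of 1 gene in 1 group, 1 library stood far from the rest of its group by Dixon's ratio at the 95% level, where chance gives about 5% of sets. In 3 of the 6, that library was female adipocytes labelled knockout, replicate 3. It held 8.32 CPM of Trib3, with the nearest of its group at 3.95 CPM. The same library held 90.8 CPM of Sesn2, with the nearest at 52.0 CPM. Its Ppp1r15a was the lowest of the group at 109.9 CPM, with the nearest at 209 CPM. Among males labelled knockout, adipocyte replicate 3 had 219.8 CPM of Pdia6 (nearest 201 CPM) and adipocyte replicate 5 had 74.0 CPM of Manf (nearest 58.0 CPM). Creld2 was at 69.8 CPM in labelled knockout SVC replicate 4, with the nearest at 36.0 CPM.

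For 2 genes the knockout label went with opposite signs in male adipocytes and male SVC by a strict rule. Every labelled knockout library lay beyond the control mean, on opposite sides in the 2 fractions. Members that differed in sign without meeting this rule are not listed here. Phgdh had a log2 fold change of -0.21 in adipocytes and 0.37 in SVC, and the difference between them was -0.60 (adjusted p = 0.756). Hspa5 had 0.30 in adipocytes and -0.30 in SVC, with a difference of 0.57 (adjusted p = 0.686). In SVC, control replicate 3 held the highest Hspa5 level, and the other control libraries also lay below the control mean. Neither difference passed the test.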

How the results depend on the processing

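Of the members' counts of calls, 258 alternatives stayed within 1.5 times the reported count and 3 did not: in female adipocytes by knockout label DESeq2 called 2 members, both lower (Atf4 -0.37, adjusted p = 0.0183; Atf3 -0.73, adjusted p = 0.0339), and leaving out 1 library at a time gave 0 to 1, with Atf4 at -0.42 (adjusted p = 0.0363) without female control replicate 2. For the difference between sexes DESeq2 called 1, Atf4 at -0.58 (adjusted p = 0.0295). Leaving out 1 library gave 15 to 21 members called for sex in controls, 10 to 13 for sex in labelled knockouts, 23 to 26 for adipocytes over SVC in controls and 24 to 25 in labelled knockouts. The calls kept under every alternative were 14 of 21, 8 of 12, 21 of 25 and 21 of 24. Single members kept direction and call in 2678 alternatives, lost the call in 150, gained it in 4 and turned sign in 3: Slc7a5 in SVC by knockout label at 0.33 without SVC control replicate 1 (-1.36 to 0.33 without any 1 library) and 0.40 without that library and SVC knockout replicate 4, and Sel1l in adipocytes over SVC of controls at -0.21 with library totals. Why these values moved was not tested.

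Counts over all genes by knockout label moved more. In male adipocytes they were 163 with DESeq2, 17 with the replicate block, 6 with 2 groups alone and 4 to 332 without 1 library (332 without male knockout replicate 5), against 10. In females they were 208 with DESeq2, 26 with 2 groups alone and 32 to 89 without 1 library, against 67. Averaged over sexes they were 355 with DESeq2, 180 with the block and 60 to 246 without 1 library, against 108. For the difference between sexes they were 25 with DESeq2, 1 with the block, 1 without the filter and 0 to 22 without 1 library, against 2.

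The replicate numbers of the titles were not taken as pairs. Same-numbered libraries correlated at -0.027 to 0.581 in female adipocytes, -0.205 to 0.212 in males and -0.357 to 0.382 in SVC. Libraries of other numbers reached 0.487, 0.25 and 0.723 in the same 3 sets. With the title numbers as a replicate block, 0 members were called by knockout label in each comparison. For adipocytes over SVC, same-numbered columns in controls correlated at -0.00727 to 0.242, with other pairs up to 0.161. They were not taken as pairs either. The block there, fitted without the libraries that lack a partner, called 22 members.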
